A study of Mus musculus with 76 samples.

Results

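Transcript levels of 10 transcription factor genes that act in blood stem cells and progenitors were followed through natural and induced T cell development in the mouse. The genes were Spi1, Lmo2, Lyl1, Tal1, Hhex, Mef2c, Bcl11a, Erg, Gata2 and Gfi1b, chosen by name as factors that T lineage precursors stop expressing around commitment. All 10 were found among the 37980 genes measured. They were read in 75 of the 76 deposited libraries, which fall into 24 groups of 2 to 4 libraries, and all 10 passed the filter on low values. The omitted library, pro/pre-B 3, held the same values as pro/pre-B 1.

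Each library came from 1000 sorted cells of mice on a C57BL/6 background. In the study, cells at the pro-B and pre-B stages were isolated from marrow, given the homeobox gene Hoxb5 by a virus in culture, sorted again and placed into recipients irradiated at a sublethal dose. The 9 induced groups are cells recovered from such recipients: BM iETP from bone marrow, and 8 from the thymus, namely thymic iETP, iDN1 to iDN4, iDP and the single positive groups iCD4 SP and iCD8 SP, with 29 libraries in all. ETP stands for early T lineage progenitors, DN for double negative, DP for double positive and SP for single positive cells, and the prefix i marks the induced ones. The 15 natural groups are BM ETP, thymic ETP, DN1 to DN4, DP, CD4 SP and CD8 SP at the matching stages, hematopoietic stem cells (HSC), the multipotent progenitors called MPP, natural pro/pre-B cells, and mature B, T and myeloid cells. The labels do not say whether the donors of the natural cells were irradiated or transplanted, or whether the libraries of a group came from separate animals. The p-values therefore measure the spread between these libraries, which may be technical. Because these are bulk libraries, fewer cells that express a gene and less RNA per cell cannot be told apart.

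LMO2, TAL1, LYL1, GATA2 and ERG can bind regulatory DNA together in stem and progenitor cells. LMO2 is a bridging protein without DNA binding of its own, TAL1 and LYL1 are related basic helix-loop-helix factors, GATA2 is a zinc finger factor and ERG belongs to the ETS family. PU.1, the product of Spi1, is an ETS factor that drives myeloid and B cell genes at graded doses, and its repression is a mark of T lineage commitment. HHEX is a homeobox factor, MEF2C and BCL11A act in lymphoid and B cell progenitors, and GFI1B is a repressor used by erythroid and megakaryocyte cells. Several of the human counterparts, among them LMO2, TAL1 and LYL1, are known as oncogenes in T cell leukemia when they are not silenced.

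Hoxb5 was above 0 in each of the 29 induced libraries, at 0.0662 to 3.47 FPKM, and was listed at 0 in 31 of the 46 natural libraries. Natural HSC had 2.84 to 5.81 FPKM, MPP 0.335 to 0.926 FPKM and BM ETP 0.185 to 0.404 FPKM, so Hoxb5 was not confined to induced cells. In the pro/pre-B libraries it was 0.00 to 0.0647 FPKM. FPKM means fragments scaled for transcript length and library depth, so levels of different genes can be compared per length. The files hold no read counts, and the steps between low values place the depth at 0.972 to 11.2 fragments per FPKM and kilobase. A value of 0 thus means that the gene is listed at 0 at this depth. Some libraries do not match a simple reading of their label. Summed FPKM of 10 neutrophil and monocyte markers was 4621 in pro/pre-B library 4, against 32.6 and 54.1 FPKM in the other pro/pre-B libraries. The 10 B lineage markers summed to 11447 and 11665 FPKM in the BM iETP libraries, against 70.9 to 88.4 in BM ETP and 13470 to 14411 in pro/pre-B cells. The natural BM ETP libraries had 32381 to 46203 FPKM of neutrophil and monocyte markers and 5.27 to 10.8 FPKM of 10 T lineage markers, with Cd3e listed at 0. In iDN1, 10 natural killer and innate lymphoid markers summed to 458 to 765 FPKM and the neutrophil and monocyte markers to 24.9 to 53.6 FPKM, against 3649 to 4180 and 2182 to 2927 FPKM in DN1. Thymic ETP, the comparator of several results below, held the T commitment gene Bcl11b and dendritic cell markers at levels given further on. The part of these markers in the results was not tested.

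The stretches just upstream of 4 of these genes are shown because Lyl1 and Hhex were higher, and Bcl11a and Mef2c lower, in thymic iETP than in thymic ETP. The sequences are the 250 bases before the RefSeq transcription start on GRCm38.p6, all on the plus strand, and RefSeq promoter entries were found for 8 of the 10 genes, with 14 starts in all. Capitals mark matches to an ETS core, searched as CGGAAG or AGGAAG on both strands. Lyl1 (chr8:84701207-84701456), Hhex (chr19:37434591-37434840), Bcl11a (chr11:24080445-24080694) and the first of 3 Mef2c starts (chr13:83503784-83504033) read as follows.
Lyl1: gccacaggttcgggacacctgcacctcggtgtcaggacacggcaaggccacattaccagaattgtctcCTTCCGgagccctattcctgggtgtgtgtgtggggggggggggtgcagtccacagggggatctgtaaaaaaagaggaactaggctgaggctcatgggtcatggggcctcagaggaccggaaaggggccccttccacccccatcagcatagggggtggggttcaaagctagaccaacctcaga
Hhex: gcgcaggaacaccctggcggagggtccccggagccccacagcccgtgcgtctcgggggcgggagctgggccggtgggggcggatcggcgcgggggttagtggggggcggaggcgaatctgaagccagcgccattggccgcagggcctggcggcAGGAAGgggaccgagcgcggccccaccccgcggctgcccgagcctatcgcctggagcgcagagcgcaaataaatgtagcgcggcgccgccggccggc
Bcl11a: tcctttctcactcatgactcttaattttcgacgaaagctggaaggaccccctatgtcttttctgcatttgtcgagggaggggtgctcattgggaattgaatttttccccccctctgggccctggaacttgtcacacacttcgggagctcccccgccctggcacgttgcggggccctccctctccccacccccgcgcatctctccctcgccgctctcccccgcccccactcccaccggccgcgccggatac
Mef2c: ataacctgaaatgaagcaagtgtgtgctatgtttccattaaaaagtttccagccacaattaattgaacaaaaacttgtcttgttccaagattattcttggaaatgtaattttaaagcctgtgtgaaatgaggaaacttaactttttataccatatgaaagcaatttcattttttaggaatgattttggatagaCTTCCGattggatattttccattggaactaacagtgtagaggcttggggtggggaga
The Lyl1, Hhex and Mef2c windows held 1 ETS match each and the Bcl11a window held none. An ETS match was present in 39.2% of 32851 mouse promoters of the same length and in 5 of the 14 windows of these genes. A GATA motif (AGATAA or AGATAG, or TGATAA or TGATAG) was found in 3 of the 14 windows and in 26.5% of all promoters. An E-box (CAGCTG or CAGATG or CATCTG) was found in 1 of the 14 windows and in 25.5% of all promoters. The base content also differed, with 76% G or C in the Hhex window and 33.6% in that of Mef2c. Matching letters describe these windows and say nothing of binding.

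Across the 24 groups each gene had its own order of levels. Spi1 was highest in mature myeloid cells, at 430.1 and 394.1 FPKM, and Lmo2 was highest in MPP, at 1113 to 1398 FPKM, overlapping with HSC. Tal1, Gata2, Gfi1b and Erg were highest in HSC, at means of 69.4 ± 11.8, 111 ± 6.60, 85.0 ± 14.3 and 27.8 ± 5.16 FPKM (SD, n = 4), and the HSC and MPP libraries overlapped for Erg. Mef2c and Bcl11a were highest in mature B cells, at 92.3 ± 19.6 and 123.0 ± 21.1 FPKM (SD, n = 4). Hhex was highest in thymic iETP, with 106.7, 95.2 and 121.7 FPKM, and Lyl1 was highest in mature myeloid cells, with 101.3 and 95.1 FPKM. Library totals were uneven, at 2004005 and 1108527 FPKM in mature myeloid cells and 711942 to 754161 FPKM in thymic iETP. These orders were not rescaled to equal totals, and the first place of Lyl1 depends on that. The group means of Mef2c and Bcl11a were the most alike of the 45 pairs of genes (Pearson r = 0.97 over 24 groups of log2(FPKM + 1) means), followed by Spi1 with Lyl1 (0.95) and Tal1 with Gata2 (0.95). Mef2c with Gfi1b had the lowest r, 0.48. These correlations describe groups that share cell sources and are not tests.

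**Figure D1:**
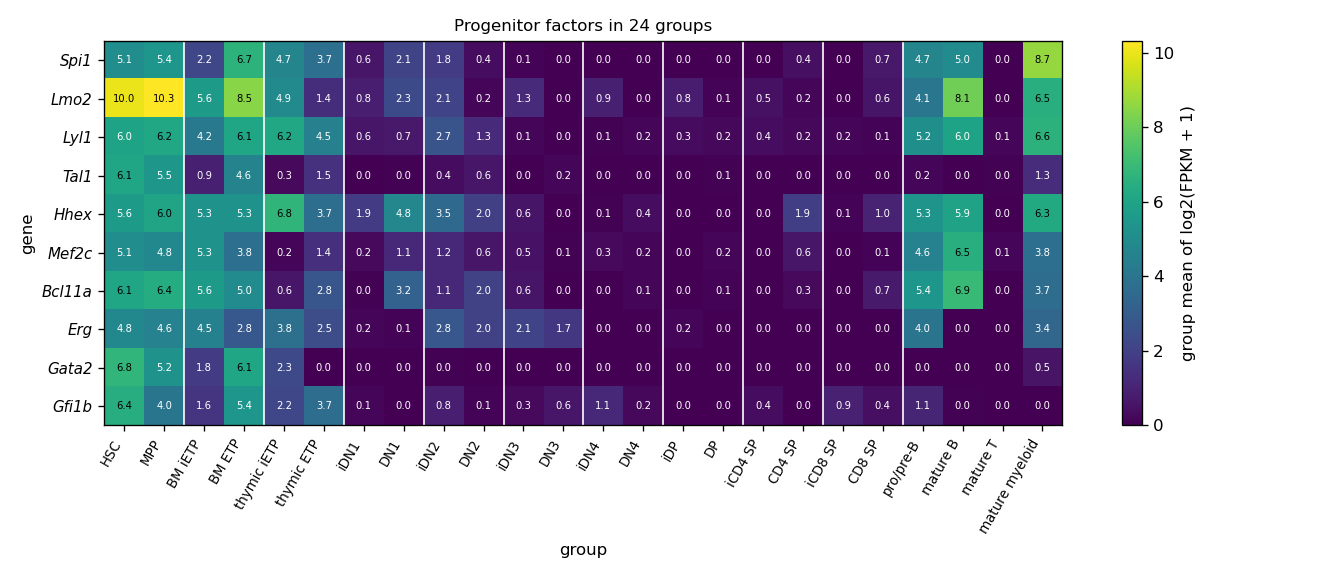
Group means of log2(FPKM + 1) for the 10 genes (rows) in the 24 groups (columns), with each induced group left of its natural counterpart and the value printed in each cell. All 10 genes are above 3 in HSC and MPP, values from the DN4 to the SP stages are mostly below 1, and thymic iETP has high Hhex (6.8) and Lyl1 (6.2) with low Bcl11a (0.6) and Mef2c (0.2).

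In the marrow 3 of the factors were lower in MPP than in HSC. Differences here and below are later, induced or lineage cells minus their comparator on the log2(FPKM + 1) scale with the standard error of a limma model of all groups, and a call is an adjusted p under 0.05. Such differences understate changes of genes near 0. Gfi1b had 12.7, 15.0, 13.3 and 20.1 FPKM in MPP, against 73.7, 82.6, 78.0 and 105.8 FPKM in HSC, a difference of -2.41 ± 0.35 (adjusted p = 2.36e-07). Gata2 was lower by -1.57 ± 0.27 in MPP (adjusted p = 1.47e-05) and Tal1 by -0.67 ± 0.20 (adjusted p = 0.0211). The MPP and HSC libraries did not overlap for these 3 genes, and the other 7 did not pass. All 3 were lower, and 5.01% of 17416 genes were lower and 8.13% called. The Tal1 call was lost without HSC library 1 or 2 or MPP library 3 or 4 (adjusted p of 0.0543 to 0.108), with equal totals (0.0711) and with only these groups fitted (0.0821). In BM ETP against MPP, 8 of the 10 genes passed, 3 higher and 5 lower, where 27.8% of all genes did, 12.6% higher and 15.2% lower. Spi1 was higher, with 89.8, 90.8 and 124.7 FPKM in BM ETP against 36.6 to 48.1 FPKM in MPP (1.25 ± 0.36, adjusted p = 0.00554), and Gata2 and Gfi1b were also higher, Gata2 no longer without any of MPP libraries 1, 3 and 4 and BM ETP libraries 1 and 3 (adjusted p of 0.0512 to 0.160) or with equal totals (0.116). Lmo2 was lower, at 321.5 to 395.3 FPKM in BM ETP against 1113 to 1398 FPKM in MPP (-1.85 ± 0.34, adjusted p = 2.10e-05), as were Tal1, Mef2c, Bcl11a and Erg. With a pseudocount of 0.1 in place of 1, 0 of the 10 genes were called in MPP against HSC and 1 in BM ETP against MPP.

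**Figure D2:**
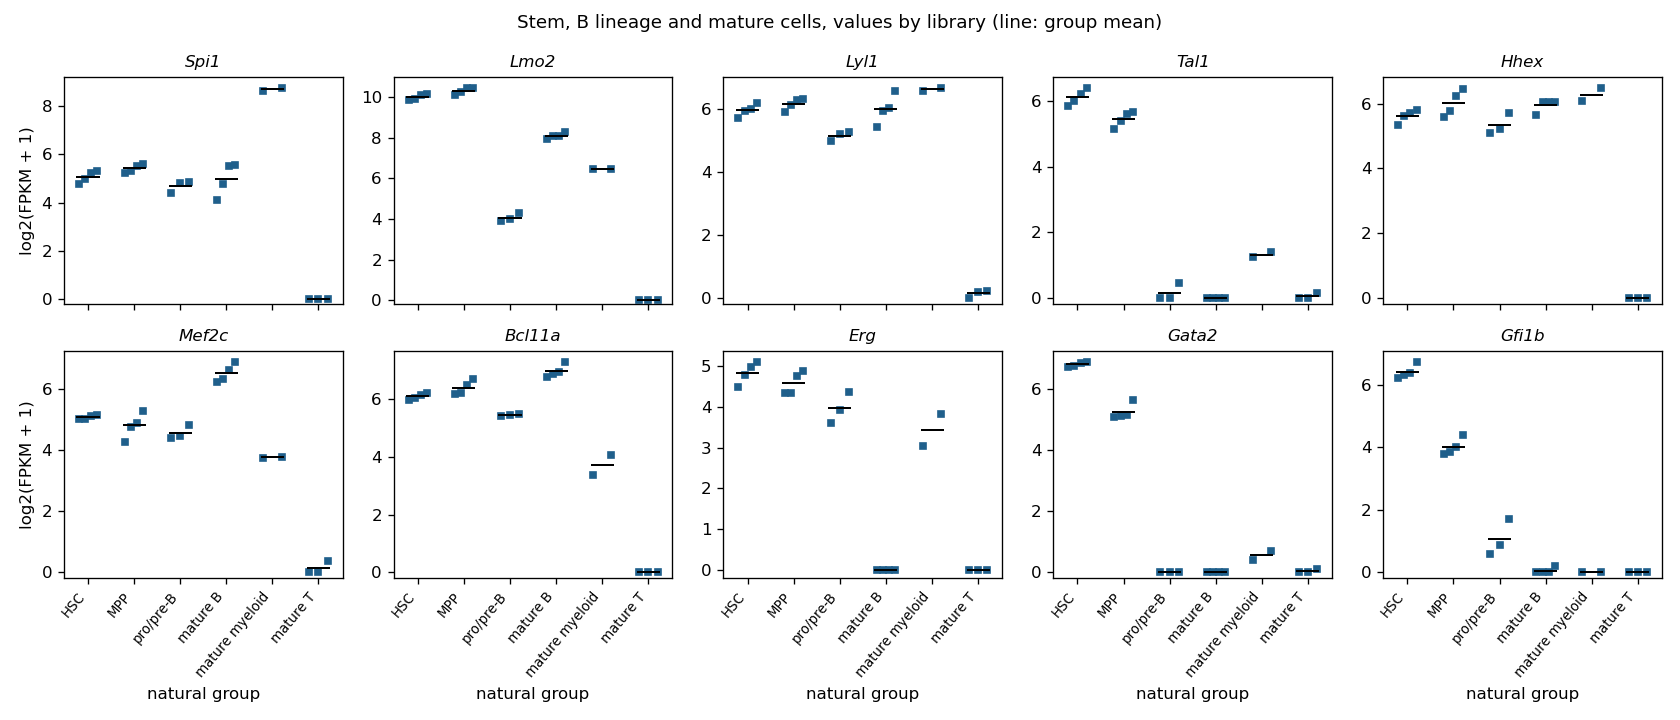
Values of log2(FPKM + 1) by library for the 10 genes in 6 natural groups, 1 square per library and a line at the group mean. Tal1, Gata2 and Gfi1b are high in HSC and near 0 in mature B cells, while Mef2c and Bcl11a are highest in mature B cells, and all 10 are near 0 in mature T cells.

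Thymic ETP had lower levels of nearly all of these genes than BM ETP. Of the 10 genes, 9 were lower and none higher, where 14.5% of all genes were called, 5.85% higher and 8.64% lower, and the median difference of the 10 was -2.29 beside 0.00 over all genes tested. Lmo2 had 0.842 and 2.59 FPKM in thymic ETP, against 344.4, 321.5 and 395.3 FPKM in BM ETP (adjusted p = 1.13e-21). Gata2 had 0.00 and 0.0566 FPKM in thymic ETP, against 61.0, 56.5 and 82.8 FPKM in BM ETP (adjusted p = 1.74e-21). Both genes were near or at 0 in thymic ETP, and the groups lay far apart. Lyl1 had 19.0 and 24.3 FPKM in thymic ETP, against 58.4 to 87.6 FPKM in BM ETP, and Spi1 had 10.7 and 14.5 FPKM in thymic ETP, against 89.8 to 124.7 FPKM in BM ETP. Hhex and Gfi1b were at levels like that of Spi1 in thymic ETP, at 9.83 and 15.3 FPKM and at 9.35 and 15.3 FPKM. Erg, with 3.56 and 5.57 FPKM in thymic ETP and 4.91 to 7.18 FPKM in BM ETP, overlapped between the groups and did not pass (adjusted p = 0.510). Of 20 T commitment genes 18 were higher in thymic ETP, and the summed neutrophil and monocyte markers were 83.7 to 84.5 FPKM there, against 32381 to 46203 FPKM in BM ETP. The part of those myeloid markers in the fall of the 9 genes was not tested. Without thymic ETP library 1 the calls of Hhex (adjusted p = 0.122) and Gfi1b (adjusted p = 0.129) were lost. Those of Lyl1, Hhex and Gfi1b were lost with a pseudocount of 0.1 (adjusted p of 0.179 to 0.340) and with only these groups fitted (0.0532 to 0.0760).

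After thymic ETP, 5 of the factors fell to a listed value of 0 in both DN3 libraries, and Gata2, already near 0 in thymic ETP, was listed at 0 there too. Spi1 had 0.254, 0.669 and 0.00 FPKM in DN2, against 10.7 and 14.5 FPKM in thymic ETP (-3.39 ± 0.43, adjusted p = 3.33e-08). In DN2, 5 of the 10 genes were lower and none was higher, where 6.67% of all genes were called and 3.67% lower. Lyl1, Tal1, Hhex and Gfi1b were the other 4. DN2 library 3 listed Spi1, Lyl1, Tal1 and Hhex at 0, and without it the calls of Tal1 (adjusted p = 0.333) and Hhex (adjusted p = 0.154) were lost. The Tal1 call was also lost without either thymic ETP library (adjusted p of 0.160 and 0.202), and the Hhex call without thymic ETP library 2 (adjusted p = 0.117). Tal1 was also lost with a pseudocount of 0.1 (adjusted p = 0.119) or quantile normalization (0.0644). Lmo2 passed without thymic ETP library 1 (adjusted p = 0.0462) or with a pseudocount of 0.1 (0.0260), Mef2c without DN2 library 2 (0.0302) and Erg without DN2 library 1 (0.00685). In DN3, 8 of the 10 genes were lower than in thymic ETP, where 10% of all genes were called, 3.82% higher and 6.22% lower, and the median difference of the 10 was -2.07. Spi1, Lmo2, Lyl1, Hhex and Bcl11a were listed at 0 in both DN3 libraries. Bcl11a had 5.69 and 5.93 FPKM in thymic ETP, so the groups lay apart (adjusted p = 1.34e-08). The Lmo2 call (adjusted p = 0.0401) was lost without thymic ETP library 2 (adjusted p = 0.455) or either DN3 library (adjusted p of 0.119 and 0.145), or with quantile normalization (0.0531). Erg had 1.86 and 2.47 FPKM in DN3, against 3.56 and 5.57 FPKM in thymic ETP (-0.80 ± 0.31, adjusted p = 0.0982, or 0.0348 with equal totals). Gfi1b, which was called lower, had 0.995 and 0.194 FPKM in DN3, so it too was above 0 in both libraries. When only the 2 groups of a comparison were fitted, no gene passed in DN2 or DN3. Ptcra, the pre-T cell receptor chain, had 167 and 182 FPKM in DN3 and 14.5 and 20.9 FPKM in thymic ETP (3.25 ± 0.62, adjusted p = 1.40e-04). Of the 20 T commitment genes 9 were higher and 1, Runx3, was lower in DN3 than in thymic ETP. Thymic ETP already held genes of that list, among them Ptcra and, as given below, Bcl11b, so this step does not start from cells without them.

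After DN3, Erg was near 0 by DN4, at 0.00, 0.0786 and 0.00 FPKM, a stage that was not tested against DN3. All 4 DP libraries listed it at 0, against 1.86 and 2.47 FPKM in DN3 (adjusted p = 2.21e-06), and it was the only one of the 10 genes called there, where 24.7% of all genes were and 12.4% were lower. From DN3 on natural levels stayed low. Of 90 values in the DN3, DN4 and DP libraries 63 were 0 and 2 were at least 1 FPKM, both of Erg in DN3. Over natural and induced DN4 to SP cells and mature T cells, 208 of 310 values were 0 and 19 were at least 1 FPKM, the highest being 6.00 FPKM of Hhex in CD4 SP library 2. The highest Spi1 and Lmo2 values in single positive cells were 2.18 and 1.09 FPKM, in CD8 SP library 3 and iCD4 SP library 1.

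Pro/pre-B cells, measured here as a natural group and the kind of cell that was given Hoxb5 in the study, had a set of these factors that differs from that of stem cells and of thymic cells. Gata2 was listed at 0 in all 3 pro/pre-B libraries, against 103.9 to 117.5 FPKM in HSC, and Tal1 was at 0.00, 0.375 and 0.00 FPKM in pro/pre-B cells, against 57.1 to 84.0 FPKM in HSC. Lmo2 was 13.7, 15.2 and 18.5 FPKM in pro/pre-B cells, against 932.3 to 1143 FPKM in HSC, a difference of -5.95 ± 0.34 (adjusted p = 2.92e-22). Spi1 (20.1 to 27.7 FPKM), Hhex (33.3 to 51.2 FPKM) and Mef2c (20.2 to 27.1 FPKM) were the 3 of 10 genes not called against HSC, and the other 7 were lower, where 41.2% of all genes were called and 24.5% lower. The Bcl11a call was lost when any library but HSC library 1 was left out (adjusted p of 0.0558 to 0.0940), and the Lyl1 call without HSC library 3 or 4 or pro/pre-B library 2 or 4 (0.0513 to 0.101). A pseudocount of 0.1 ended those of Lyl1, Bcl11a and Erg (adjusted p of 0.115 to 0.444), and Mef2c passed as lower with equal totals (0.0456) or only these groups fitted (0.0168). In mature B cells, Lmo2 had 266.2, 242.4, 307.3 and 267.1 FPKM, against 13.7 to 18.5 FPKM in pro/pre-B cells (4.02 ± 0.34, adjusted p = 7.85e-15). Lyl1, Mef2c and Bcl11a were also higher in mature B cells, and Erg, listed at 0 in all 4 of their libraries, and Gfi1b were lower, so 6 of 10 genes passed where 25% of all genes did, 11.5% higher and 13.4% lower. The Lyl1 call was lost when any library but mature B library 1 was left out (adjusted p up to 0.157), and the Gfi1b call when any but that one or pro/pre-B library 4 was (up to 0.304). Those of Lyl1 (adjusted p = 0.506) and Bcl11a (0.0630) were lost with a pseudocount of 0.1. Against mature T cells 6 genes were higher in mature B cells (23.9% of all genes called, 12.1% higher) and 8 were higher in mature myeloid cells (45.9% called, 28.1% higher). Spi1, Lmo2, Hhex, Bcl11a, Erg and Gfi1b were listed at 0 in all 3 mature T libraries, so no fold is given. Mature T libraries also held 1500 to 1724 FPKM of neutrophil and monocyte markers, and Spi1 was 0 in all 3. The relation of these markers to Spi1 was not tested.

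BM iETP, the induced group from marrow, had less Spi1, Lmo2, Lyl1, Tal1, Gata2 and Gfi1b and more Mef2c and Erg than BM ETP. Mef2c had 32.9 and 42.6 FPKM and Erg 23.4 and 20.7 FPKM in BM iETP, against 12.5 to 13.0 and 4.91 to 7.18 FPKM in BM ETP, and both were called higher (1.49 ± 0.29, adjusted p = 3.16e-05, for Mef2c, and 1.70 ± 0.28, adjusted p = 2.18e-06, for Erg). Spi1 had 2.66 and 4.62 FPKM in BM iETP, against 89.8 to 124.7 FPKM in BM ETP (-4.48 ± 0.43, adjusted p = 3.39e-13). Lmo2, Lyl1, Tal1, Gata2 and Gfi1b were also lower, which gives 2 of 10 genes higher and 6 lower, where 31.1% of all genes were called, 14.4% higher and 16.8% lower. As given above, BM iETP held high B lineage markers and BM ETP high neutrophil and monocyte markers. Their part in these differences was not tested. Hhex (35.9 and 39.2 FPKM in BM iETP, 34.7 to 46.9 FPKM in BM ETP) overlapped and Bcl11a did not pass, with adjusted p of 1.00 and 0.117. The calls of Mef2c (adjusted p = 0.126) and Lyl1 (0.0942) were lost with a pseudocount of 0.1, and with only these groups fitted that of Gata2 (0.105). Compared with pro/pre-B cells, BM iETP had 4 of 10 genes called, 3 higher and 1 lower, where 15.5% of all genes were, 8.1% higher and 7.4% lower. Mef2c and Erg were not called against pro/pre-B cells. Spi1 was lower in BM iETP (-2.50 ± 0.43, adjusted p = 9.01e-06) and Lmo2 higher, at 47.9 and 48.8 FPKM in BM iETP, against 13.7 to 18.5 FPKM in pro/pre-B cells (1.56 ± 0.41, adjusted p = 0.00438). The calls of Gata2 and Tal1 rest on BM iETP library 2, which had 11.2 FPKM of Gata2 and 2.45 FPKM of Tal1, with both listed at 0 in library 1. Without library 2 the difference was 0.00 for Gata2 (adjusted p = 1.00) and -0.15 for Tal1 (adjusted p = 0.964). The Tal1 call was also lost without pro/pre-B library 1 or 4 (adjusted p of 0.115 and 0.120), and a pseudocount of 0.1 ended those of Lmo2 and Tal1 (0.169 for Tal1). Library 2 also had 21.7 FPKM of the mast cell gene Cpa3 and 2.38 FPKM of Gata1, both listed at 0 in library 1, and the part of such cells in the 2 calls was not tested. When only these groups were fitted, no gene was called against pro/pre-B cells.

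In thymic iETP, 5 factors were higher and 4 lower than in thymic ETP. That is 9 of 10 genes, where 8.27% of all genes were called, 4.49% higher and 3.78% lower. Lmo2 had 21.0, 52.8 and 22.4 FPKM in thymic iETP, against 0.842 and 2.59 FPKM in thymic ETP, a ratio of mean FPKM of 18.7 (3.56 ± 0.41, adjusted p = 2.47e-09). Every thymic iETP library was above both thymic ETP libraries. Hhex had 106.7, 95.2 and 121.7 FPKM in thymic iETP, against 9.83 and 15.3 FPKM in thymic ETP, a ratio of 8.59 (3.03 ± 0.41, adjusted p = 1.20e-07). Lyl1 had 71.8, 72.6 and 66.3 FPKM in thymic iETP, against 19.0 and 24.3 FPKM in thymic ETP (1.66 ± 0.37, adjusted p = 0.00122). The promoter windows of Lyl1 and Hhex shown above belong to these 2 genes. Erg was 11.1 to 15.6 FPKM in thymic iETP and 3.56 and 5.57 FPKM in thymic ETP (1.34 ± 0.28, adjusted p = 7.58e-04), and Gata2 was 3.15 to 4.87 FPKM in thymic iETP and 0.00 and 0.0566 FPKM in thymic ETP (adjusted p = 3.99e-06).

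The 4 lower genes were Bcl11a, Mef2c, Tal1 and Gfi1b. Bcl11a had 0.00, 1.06 and 0.745 FPKM in thymic iETP, against 5.69 and 5.93 FPKM in thymic ETP (-2.15 ± 0.31, adjusted p = 7.43e-07). Mef2c had 0.00, 0.515 and 0.00 FPKM in thymic iETP, against 1.59 and 1.64 FPKM in thymic ETP (-1.19 ± 0.29, adjusted p = 0.00374), and Tal1 had 0.00 to 0.600 FPKM in thymic iETP, against 1.72 and 1.77 FPKM in thymic ETP (adjusted p = 8.19e-04). Gfi1b was called at -1.52 ± 0.45 (adjusted p = 0.0214) and was lost without thymic iETP library 1 (adjusted p = 0.344) or thymic ETP library 2 (adjusted p = 0.303). Spi1 was at 35.9, 21.9 and 19.9 FPKM in thymic iETP and 10.7 and 14.5 FPKM in thymic ETP, and did not pass (0.95 ± 0.43, adjusted p = 0.182). Without thymic ETP library 1 the Erg call was lost (adjusted p = 0.0687), and without library 2 that of Mef2c (adjusted p = 0.0527). With a pseudocount of 0.1 the calls of Lyl1 (adjusted p = 0.319), Erg (0.0957) and Gfi1b (0.359) were lost. When only these 2 groups were fitted, none of the 9 genes passed, with adjusted p of 0.133 to 0.745.

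**Figure D3:**
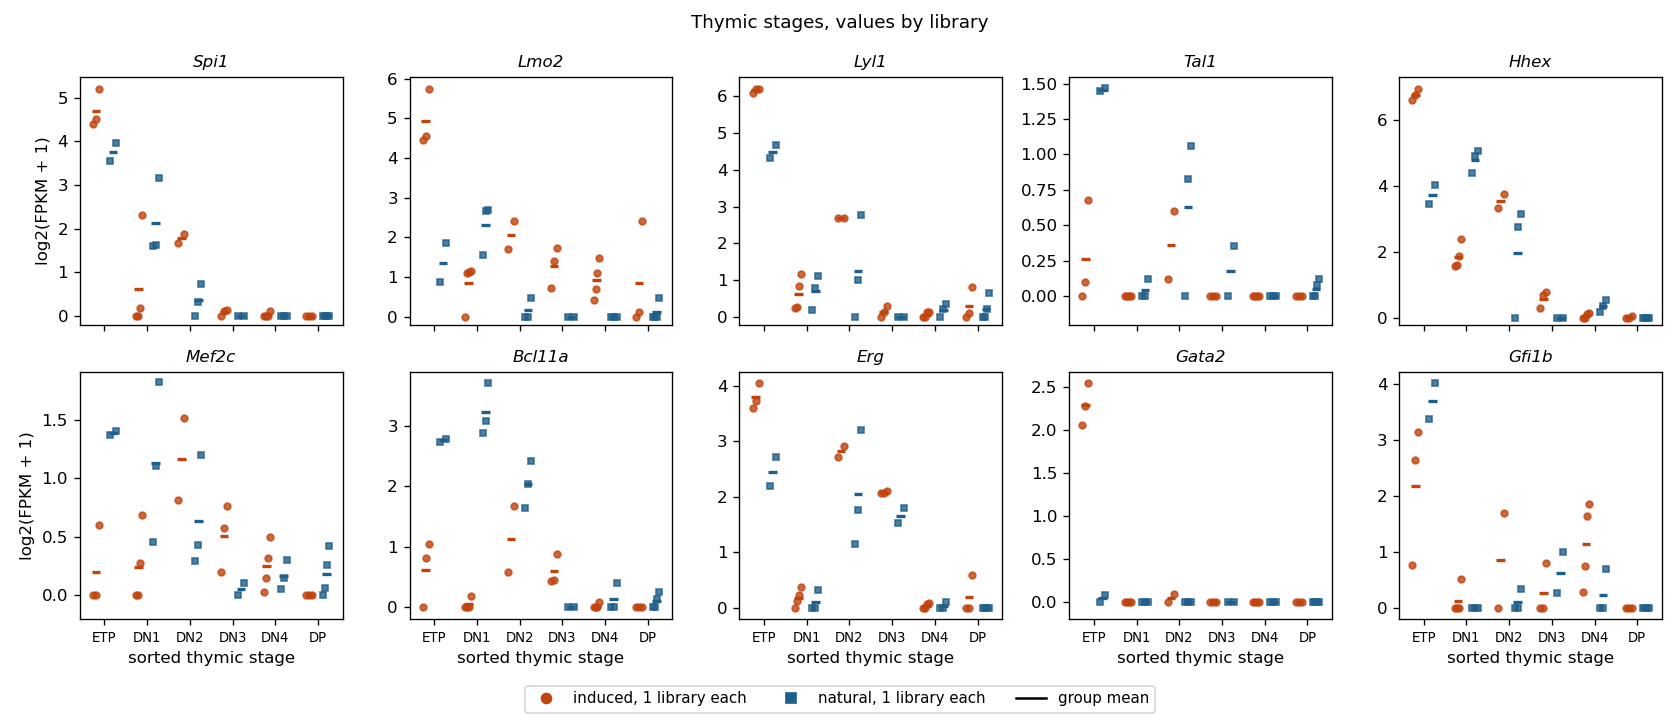
Values of log2(FPKM + 1) by library at the thymic stages ETP, DN1, DN2, DN3, DN4 and DP, with induced cells (circles) left of natural cells (squares) and a line at each group mean. At the ETP stage the induced libraries are above the natural ones for Lmo2, Lyl1, Hhex, Erg and Gata2 and below them for Tal1, Mef2c, Bcl11a and Gfi1b. Those of Spi1, which was not called, are also above the natural ones. Both sets are near 0 by DN4 or DP for most genes.

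**Figure D4:**
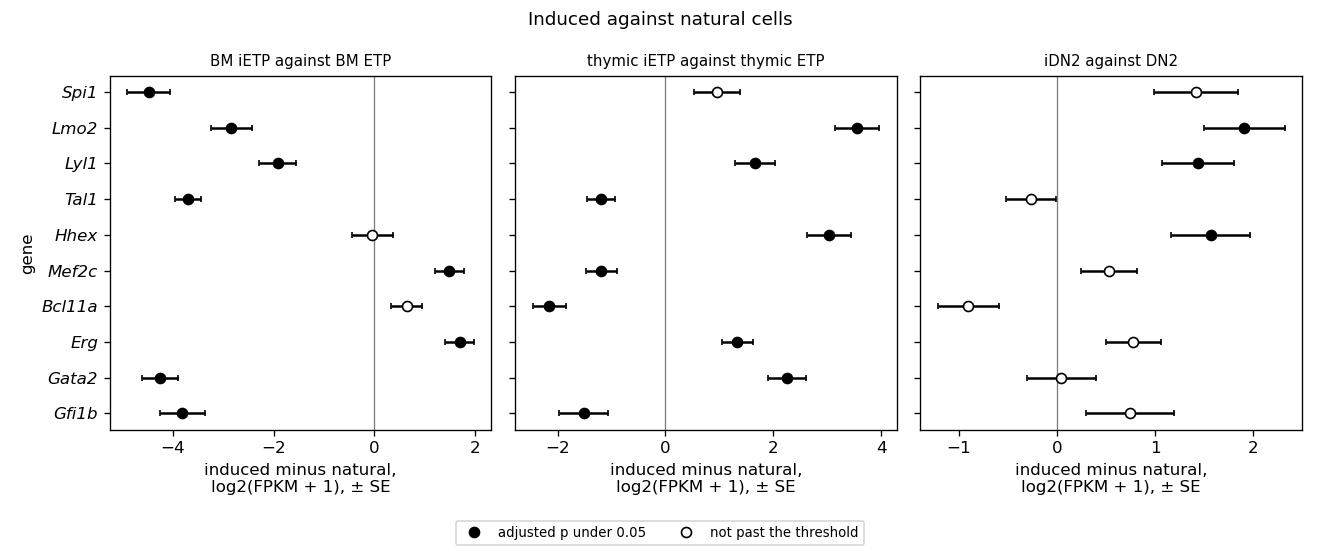
Differences of induced minus natural cells in log2(FPKM + 1), with standard errors of the model, at the BM ETP, thymic ETP and DN2 stages. Filled points passed the adjusted p of 0.05, and those of Lmo2 and Lyl1 are below 0 at the BM ETP stage and above 0 at the other 2 stages.

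Gene lists around the factors moved unevenly between these 2 groups, and their counts stand beside 4.49% of all genes higher and 3.78% lower. Kit, the stem cell factor receptor, had 36.4, 34.9 and 33.3 FPKM in thymic iETP, against 12.3 and 8.08 FPKM in thymic ETP (1.70 ± 0.49, adjusted p = 0.0171). Flt3, a receptor of lymphoid progenitors, was 0.0622 to 1.27 FPKM in thymic iETP against 4.35 and 5.09 FPKM in thymic ETP (-1.88 ± 0.37, adjusted p = 2.77e-04). Of 16 progenitor genes 3 (Cd33, Kit and Cebpa) were higher and 2 (Hoxa7 and Flt3) lower in thymic iETP. Irf8, which acts in dendritic and myeloid development, had 0.00, 0.0762 and 0.825 FPKM in thymic iETP, against 30.2 and 78.7 FPKM in thymic ETP, and the 10 dendritic cell markers summed to 36.8 to 63.6 FPKM in thymic iETP and 1298 to 2273 FPKM in thymic ETP. Of 12 PU.1-linked genes 2 (Csf3r and Btk) were higher and 2 (Spib and Irf8) were lower. Of 10 partners of the LMO2 complex, Cbfa2t3 and Fli1 were higher and none was lower. Of the 20 T commitment genes 1 was higher and 6 were lower in thymic iETP, among them Ptcra, listed at 0 in all 3 thymic iETP libraries, against 14.5 and 20.9 FPKM in thymic ETP, while Bcl11b stood at 118 to 129 FPKM in thymic iETP and 150 and 164 FPKM in thymic ETP. The median difference of the T commitment genes was -0.32 beside 0.00 over all genes. The T lineage markers summed to 1072 to 1165 FPKM in thymic iETP and 1846 to 2344 FPKM in thymic ETP, and the part of these markers in the results was not tested.

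Relative to the natural pro/pre-B libraries, thymic iETP had lower Mef2c and Bcl11a and higher Gata2. Bcl11a had 0.00, 1.06 and 0.745 FPKM in thymic iETP, against 42.8, 41.4 and 42.4 FPKM in pro/pre-B cells (-4.82 ± 0.28, adjusted p = 6.71e-22), and Mef2c had 0.00, 0.515 and 0.00 FPKM in thymic iETP, against 20.2 to 27.1 FPKM in pro/pre-B cells (-4.36 ± 0.26, adjusted p = 2.04e-21). Gata2 was 3.15 to 4.87 FPKM in thymic iETP and listed at 0 in all 3 pro/pre-B libraries (adjusted p = 2.15e-08). Lyl1, Hhex and Gfi1b were also called higher in thymic iETP, so 4 genes were higher and 2 lower, where 29.8% of all genes passed, 15.2% higher and 14.6% lower. Spi1, Lmo2, Tal1 and Erg did not pass. Without pro/pre-B library 4 the calls of Lyl1 (adjusted p = 0.0592) and Gfi1b (adjusted p = 0.149) were lost, and the Gfi1b call was also lost without thymic iETP library 2 or 3 or pro/pre-B library 2 (adjusted p of 0.0860 to 0.304). Lmo2 passed as higher without thymic iETP library 1 (adjusted p = 0.0403) or with equal totals (0.0199), and with a pseudocount of 0.1 the calls of Lyl1, Hhex and Gfi1b were lost (0.117 to 0.410).

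In iDN1, 5 of the factors were lower than in DN1. Bcl11a was 0.00, 0.00, 0.129 and 0.00 FPKM in iDN1, against 6.42, 12.2 and 7.45 FPKM in DN1 (-3.19 ± 0.26, adjusted p = 3.20e-15). Hhex was 1.98 to 4.24 FPKM in iDN1, against 19.8 to 31.9 FPKM in DN1 (-2.92 ± 0.34, adjusted p = 5.45e-10). Spi1, Lmo2 and Mef2c were also lower, 5 of 10 genes in all where 18.8% of all genes were called and 8.93% lower. As given above, DN1 held far more of the natural killer, neutrophil and monocyte markers than iDN1. The part of such cells in these calls was not tested. Without DN1 library 2 the Spi1 call was lost (adjusted p = 0.0723), and without DN1 library 3 that of Mef2c (adjusted p = 0.163). When only these groups were fitted, 2 genes passed. In iDN2, Lmo2, Lyl1 and Hhex were called higher than in DN2, so Lmo2 and Hhex had the opposite sign to that in iDN1. Lmo2 had 2.28 and 4.35 FPKM in iDN2, against 0.383, 0.00 and 0.00 FPKM in DN2 (1.91 ± 0.41, adjusted p = 0.00392). Lyl1 had 5.45 and 5.50 FPKM in iDN2, against 1.02, 5.77 and 0.00 FPKM in DN2, so the groups overlapped (adjusted p = 0.0234). Hhex had 9.01 and 12.3 FPKM in iDN2, against 7.85, 5.70 and 0.00 FPKM in DN2 (adjusted p = 0.0261). These 3 of 10 compare with 1.5% of all genes called and 0.879% higher. Without DN2 library 3 the Lyl1 and Hhex calls were lost (adjusted p of 0.359 and 0.540), and without iDN2 library 2 those of all 3 genes were lost (adjusted p of 0.220 to 0.391). The Lyl1 and Hhex calls were also lost without iDN2 library 1 (adjusted p of 0.195 and 0.104), and that of Lyl1 without DN2 library 1 (adjusted p = 0.0789). A pseudocount of 0.1 also ended those of Lyl1 (adjusted p = 0.170) and Hhex (0.0740). Erg passed as higher without DN2 library 1 (adjusted p = 3.20e-04) and Bcl11a as lower without iDN2 library 2 (0.0440).

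**Figure D5:**
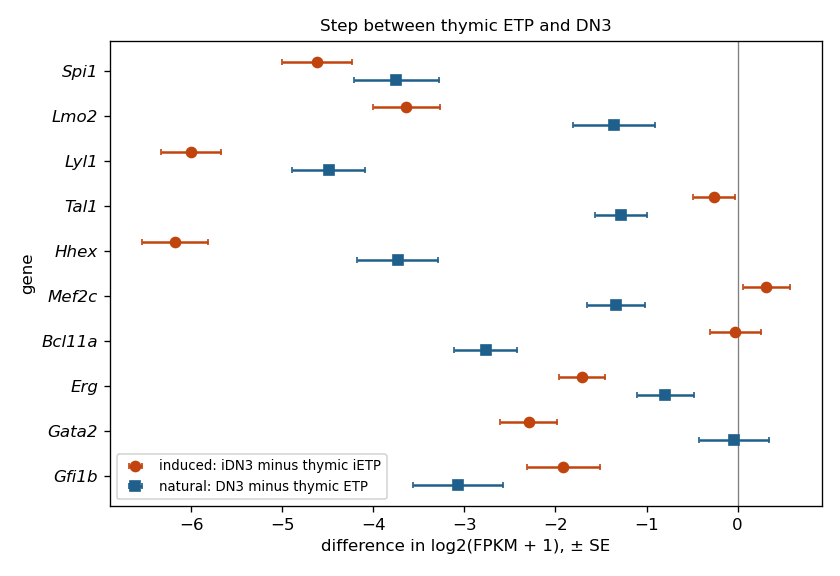
Change between thymic ETP and DN3 in log2(FPKM + 1), with standard errors of the model, for induced cells (circles, iDN3 minus thymic iETP) above natural cells (squares, DN3 minus thymic ETP) for each gene. Lmo2, Hhex and Gata2, which were higher in thymic iETP than in thymic ETP, fall further in induced cells, and Mef2c and Bcl11a, which were already low in thymic iETP, change little there.

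The step from thymic ETP to DN3 was then compared between the induced and natural series. In induced cells 7 of 10 genes were lower in iDN3 than in thymic iETP, where 19.8% of all genes were called and 11% lower, and the median difference was -2.11. Hhex was 0.221 to 0.721 FPKM in iDN3, against 95.2 to 121.7 FPKM in thymic iETP (-6.17 ± 0.36, adjusted p = 9.69e-21). Lyl1 was 0.00 to 0.230 FPKM in iDN3, against 66.3 to 72.6 FPKM in thymic iETP (-6.01 ± 0.33, adjusted p = 6.90e-22). Tal1, Mef2c and Bcl11a, low in both groups, did not pass. The step differed between the series for 5 of 10 genes, where 4.82% of all genes differed, 2.69% upward and 2.13% downward. The difference of the steps, induced minus natural, was -2.27 ± 0.58 for Lmo2 (adjusted p = 0.0109), -2.44 ± 0.57 for Hhex (adjusted p = 0.00478) and -2.26 ± 0.50 for Gata2 (adjusted p = 0.00237). It was 1.64 ± 0.41 for Mef2c (adjusted p = 0.00853) and 2.74 ± 0.44 for Bcl11a (adjusted p = 1.85e-05). With a pseudocount of 0.1 the values were -0.33 for Lmo2 (adjusted p = 1.00) and -0.61 for Hhex (adjusted p = 0.938), so these 2 calls depend on the pseudocount. Both genes are listed at 0 in DN3. Gata2 was listed at 0 in all iDN3 and DN3 libraries, so its difference of the steps is that of thymic iETP against thymic ETP with the sign turned and adds nothing to it. For every gene the difference of the steps is that of iDN3 against DN3 minus that of thymic iETP against thymic ETP. The former was 1.28 for Lmo2, 0.59 for Hhex, 0.46 for Mef2c and 0.59 for Bcl11a, none of them called. The larger part for these genes was thus the difference of thymic iETP against thymic ETP, with the sign turned. The Lmo2 call was also lost without thymic ETP library 1 (adjusted p = 0.139) or thymic iETP library 2 (adjusted p = 0.0575), and that of Hhex without thymic ETP library 1 (adjusted p = 0.0546). With only these 4 groups fitted the calls of Lmo2 (adjusted p = 0.221) and Mef2c (0.0791) were lost and Lyl1 passed (0.0123), and Tal1 passed without thymic iETP library 2 (0.0448).

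From iDN3 on, few of these genes were called between induced and natural cells. In iDN3 against DN3 none of the 10 was called (limma), where 3.54% of all genes were, and 1 passed an unadjusted p of 0.05. That gene was Lmo2, with 2.32, 1.65 and 0.639 FPKM in iDN3 and 0 in both DN3 libraries (adjusted p = 0.0663), and without iDN3 library 3 it passed (adjusted p = 0.0482). None was called in iDN4 against DN4 (0.741% of all genes called, 2 at an unadjusted p), in iDP against DP (10.4%, 1 at an unadjusted p) or in iCD8 SP against CD8 SP (10.6%, 2 at an unadjusted p). Lmo2 passed as higher in iDP without iDP library 2 (adjusted p = 0.0458), and Bcl11a as lower in iCD8 SP without CD8 SP library 2 or 3 (0.0126 and 0.0125). Lmo2 was 4.35, 0.00 and 0.0751 FPKM in iDP, and Bcl11a was 2.69, 0.126 and 0.137 FPKM in CD8 SP. Each of these passes thus rests on 1 high library, library 1 of its group. In iCD4 SP against CD4 SP only Hhex passed, where 26.4% of all genes were called and 12.4% lower, and it was listed at 0 in all 4 iCD4 SP libraries, against 2.11, 6.00 and 1.56 FPKM in CD4 SP (adjusted p = 7.80e-06). Mef2c passed as lower without CD4 SP library 3 (adjusted p = 0.0136). With a pseudocount of 0.1, Lmo2 passed as higher in iDN3 and iDN4 (adjusted p of 0.00891 and 0.0249) and Bcl11a in iDN3 (0.0360). Mef2c then passed as lower in iCD4 SP (0.00506), as did Spi1, Lmo2, Hhex and Bcl11a in iCD8 SP (7.81e-04 to 0.0361). With quantile normalization Mef2c was lower in iCD4 SP (0.0125) and Bcl11a in iCD8 SP (0.0355). At these low levels the calls depend on the pseudocount. Lmo2 was still above 0 in every iDN3 and iDN4 library, at 0.334 to 2.32 FPKM, while it was listed at 0 in all DN3 and DN4 libraries. The induced libraries were deeper, at 4.81 to 6.46 fragments per FPKM and kilobase, against 3.09 to 3.91 in DN3 and DN4. The part of depth in this contrast was not tested. In iDP against iDN3 only Erg passed, where 19% of all genes were called and 10.8% lower. It was 0.00, 0.503 and 0.00 FPKM in iDP, against 3.17, 3.18 and 3.32 FPKM in iDN3 (-1.88 ± 0.25, adjusted p = 4.08e-08). Erg was already 0.00 to 0.0585 FPKM in iDN4, as it was near 0 in DN4. Lmo2 passed as lower in iDP against iDN3 without iDP library 1 (adjusted p = 0.00636). Hhex, Mef2c and Bcl11a passed as lower there with a pseudocount of 0.1 (adjusted p of 0.00319 to 0.0125).

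Other genes came close to these factors in pattern across the 24 groups. The 3 most alike per factor were sought among 11132 genes by the Pearson correlation of group means of log2(FPKM + 1). Spi1 was most like Csf2rb (0.94), Fes and Plcg2, and Lyl1 most like Plxnb2 (0.94), Ago4 and Plcg2. Tal1 was most like Fkbp9 (0.98), Ltbp3 and Hoxa9, and Gata2 most like Gstm5 (0.98). Hhex was most like Napsa (0.95), Mef2c most like Fam43a (0.94) and Bcl11a most like Pik3ap1 (0.91). Lmo2 was most like Rhob (0.92), Erg most like Gab1 (0.92) and Gfi1b most like Rab17 (0.91).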

How the data were processed

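RNA was measured in 76 libraries of 1000 sorted cells, by amplified cDNA and tagmentation per the labels' protocols. The deposited values are FPKM made by the authors. Per the submitters' processing notes they used bcl2fastq, TopHat, Cufflinks 2.2.1, Cuffnorm and NCBIM37. Their parameters, annotation and library normalization are not given in the sources used here, and the strand setting is not either. Exons of 2 of the genes, Lyl1 and Bcl11a, overlap a gene on the other strand (Nfix and 4930538E20Rik), so their values can hold reads of both. Symbols came from GENCODE vM21 on GRCm38, not the build of the authors, for 32916 of 37980 IDs (86.7%). Totals ran from 667660 to 2004005 FPKM per library. Depth was placed from 4285 genes with 1 transcript of at least 1000 bases, and covers counting error only.

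Values were taken as log2(FPKM + 1). The 17416 genes that reached 1 FPKM in 2 or more libraries were fitted with limma 3.58.1 in R 4.3.3, with 1 mean per group over 75 libraries, trend and robust settings and 51 residual degrees of freedom. Tests were two-sided, with Benjamini-Hochberg adjustment over genes in each of 24 comparisons and a threshold of 0.05. Summaries used Python 3.11.15, numpy 2.4.6, pandas 2.3.3 and matplotlib 3.10.9. The fit was tested on simulated data of 17416 genes, with rises put into 200 genes whose mean log2(FPKM + 1) was above 3 in the comparator. Each gene had 1 normal spread in all groups. For thymic iETP against thymic ETP, the fit found 33% of rises by 2-fold and 85% by 4-fold, with 4.84% of its calls false. For DN3 against thymic ETP it found 26% and 79%, with 4.55% false. Falls, changes of genes near 0 and groups without spread were not simulated, so these rates do not cover them. Named genes are the 10 factors, members of fixed lists, and the 3 genes most alike in group means. The factors, lists and tests were chosen with earlier results of these data known. Alternatives were a pseudocount of 0.1, no filter, equal totals, quantile normalization, a block of libraries of the same number, only the compared groups, and each library left out in turn.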

Additional observations from a re-analysis of the deposited data

Results flagged for a closer look

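Single libraries stood apart in 5 of the 36 sets checked, each 1 gene in 1 group of 4 libraries. The nominal rate of this check is about 1 in 20 for normal values. It does not hold here, because a set with all but 1 library at 0 is always flagged. No excess over chance can be read from this count. Spi1 was 3.95 FPKM in iDN1 library 3, against 0.00 to 0.136 FPKM in the other 3. Lmo2 was listed at 0.00 FPKM in iDN1 library 4, against 1.16 to 1.23 FPKM in the others. Hhex was 49.2 FPKM in 1 mature B library, below 64.6 to 65.7 FPKM in the others. Gata2 was 48.7 FPKM in 1 MPP library, above 32.5 to 34.0 FPKM in the others. Gfi1b was 1.67 FPKM in iCD4 SP library 1 and listed at 0 in the other 3.

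The step from thymic ETP to DN3 differed between the induced and the natural series, by a test of the difference itself, for 5 genes. The difference, induced minus natural, was -2.27 for Lmo2, -2.44 for Hhex and -2.26 for Gata2, and 1.64 for Mef2c and 2.74 for Bcl11a, in log2(FPKM + 1). With a pseudocount of 0.1 it was -0.33 for Lmo2 and -0.61 for Hhex, neither of them called. For Gata2, listed at 0 in all iDN3 and DN3 libraries, it restates the difference of thymic iETP against thymic ETP. For the other genes named here iDN3 against DN3 differed by 0.46 to 1.28 and was not called. The larger part of their difference of the steps was thus that of thymic iETP against thymic ETP, with the sign turned.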

How the results depend on the processing

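Groups of 2 to 4 libraries and levels near 1 fragment limit these results. Of 240 gene results, no filter changed none, equal totals lost 4 and gained 4 calls, quantile normalization lost 4 and gained 2, a pseudocount of 0.1 lost 33 and gained 13, and fitting only the compared groups lost 43 and gained 2. Of 1490 results with 1 library left out, 65 lost and 13 gained a call and 1 reversed, Tal1 in BM iETP against pro/pre-B (-0.15, adjusted p = 0.964, without BM iETP library 2, and up to 1.63 without library 1). The causes were not tested, except that fewer libraries enter the fit of only the compared groups and the leave-one-out fits. The fit of only the compared groups also leaves out the spread of all other groups, which the main fit pools.

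Counts of the 10 genes called moved by more than 1.5 times as follows. With only the compared groups, the count was 0 for thymic iETP against thymic ETP, iDN2 against DN2, DN2 and DN3 against thymic ETP and BM iETP against pro/pre-B, and 2 for iDN1 against DN1. With a pseudocount of 0.1 it was 1 for iDN2 against DN2, iDN4 against DN4 and BM ETP against MPP, 2 for iDN3 against DN3, iCD4 SP against CD4 SP and BM iETP against pro/pre-B, 0 for MPP against HSC, 4 for iCD8 SP against CD8 SP, pro/pre-B against HSC and iDP against iDN3, and 3 for thymic iETP against pro/pre-B and for the difference of the steps. With quantile normalization it was 2 for iCD4 SP against CD4 SP and 1 for iCD8 SP against CD8 SP.

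With each library left out in turn, the counts ran from 7 to 9 for thymic iETP against thymic ETP, 8 to 8 for BM iETP against BM ETP, 4 to 5 for iDN1, 1 to 3 for iDN2, 0 to 1 for iDN3, iDP and iCD8 SP, 0 to 0 for iDN4 and 1 to 2 for iCD4 SP, each against its natural counterpart. They ran from 2 to 4 for BM iETP and 4 to 7 for thymic iETP against pro/pre-B, 7 to 9 for thymic ETP against BM ETP, 3 to 6 for DN2 and 7 to 8 for DN3 against thymic ETP, 7 to 7 for iDN3 against thymic iETP, 1 to 1 for DP against DN3, 1 to 2 for iDP against iDN3 and 3 to 5 for the difference of the steps. They ran from 2 to 3 for MPP against HSC, 7 to 8 for BM ETP against MPP, 5 to 7 for pro/pre-B against HSC, 4 to 6 for mature B against pro/pre-B, and were 6 to 6 and 8 to 8 for mature B and mature myeloid against mature T.

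Deviations of libraries of the same number were at most weakly correlated. The 51 pair correlations ran from -0.0401 to 0.131, and in 0 of 10 comparisons with at least 3 pairs were all over 0.1. In MPP against HSC all 4 pairs were positive, at 0.0245 to 0.131. Pairs of unlike number were not compared, so shared preparation there was not tested. With the replicate block, 21 of 21 counts were within 1.5 times, and 2 calls were lost, Gfi1b in thymic iETP (1.03, adjusted p = 0.0523) and Tal1 in BM iETP (0.69, adjusted p = 0.0542), each against pro/pre-B.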
